A study of Mus musculus with 6 samples.

Results

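Phf10 and 9 other genes that encode subunits of the SWI/SNF chromatin remodelling complexes were followed in mouse BCR-ABL+ B-ALL cells, a B-lineage acute lymphoblastic leukaemia. The cells had received either 312 nM DHA (dihydroartemisinin, to which some artemisinin antimalarials are converted in the body) for 4 h or its vehicle DMSO. Each group held 3 Affymetrix arrays. The genes were Phf10, Arid2, Pbrm1, Brd7, Arid1a, Dpf2, Smarca4, Smarca2, Smarcb1 and Smarcc1. Every probe set (a group of array probes summarised into 1 value) that the platform annotation pairs with 1 of these symbols alone was taken, which gave 11 of 41345 probe sets, and these stand for 10 of 22180 genes. Phf10 had 2 probe sets, each of the 9 other genes had 1, and 0 were shared with another gene. Phf10 was chosen by its own values in this comparison, since probe set 17341148 had passed the test of DHA against DMSO in earlier work on these data. Its values are therefore given as a description, with the SD and with no interval or p, and that earlier call is repeated only as the value that chose the gene, and the other genes were chosen as partners of its protein with their values known.

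Both groups carried the BCR-ABL oncogene. The growth protocol covers p185+ and p185T315I+ lines that are Arf-/- or p53-/-, and the line hybridised here is not named. The treatment protocol names 4 h, the extraction protocol also names 2 h, and the titles of the DMSO samples name no time. No label tells whether replicates were separate cultures, so intervals and p-values measure the spread between these arrays, which may be technical. Fewer cells with a transcript and less transcript per cell cannot be told apart in such bulk RNA.

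SWI/SNF complexes use the energy of ATP to move or evict nucleosomes and so change which DNA is open to transcription factors. Each is built around 1 catalytic ATPase, BRG1 (encoded by Smarca4) or BRM (Smarca2), and a core that includes the products of Smarcb1 and Smarcc1. Canonical BAF adds ARID1A or its paralogue and a member of the DPF family such as DPF2. PBAF instead carries ARID2, polybromo (Pbrm1), BRD7 and PHF10, also called BAF45A, which like DPF2 has paired PHD fingers that bind histone tails. In lymphoid cells these complexes take part in opening the enhancers that set B-lineage identity.

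The 6 arrays were alike, with Pearson correlations over all probe sets between 0.993 and 0.995, and 0 pairs held identical values. DMSO replicate 3 and DHA replicate 2, whose titles share a number, were the most alike pair. B-cell precursor markers were present, with means over the 6 arrays of up to 12.98 on the log2 scale (Igll1), although the value of Vpreb1 was low, at 4.78. Markers of T, NK, myeloid, erythroid and stromal cells had means between 3.33 and 6.30, apart from Pecam1 at 9.43, an adhesion molecule that B-lineage cells also carry. Limma called 0 markers of any of these types, with 3 of the 26 tested (Igll1, Nkg7 and Pecam1) at an unadjusted p under 0.05, beside 8.61% of all tested probe sets. Pecam1 measured 9.50, 9.50 and 9.56 with DHA, against 9.37, 9.29 and 9.35 with DMSO, and the part of any other cell type in the results was not tested.

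Phf10 was higher with DHA on both of its probe sets, by different amounts. Probe set 17341148 measured 8.72, 8.71 and 8.66 with DHA, against 7.49, 7.37 and 7.39 with DMSO (log2 intensity, DHA and DMSO replicates 1 to 3 in turn). All 3 DHA arrays lay above all 3 DMSO arrays, and the gap of 1.17 between the lowest DHA and the highest DMSO array was 17.8 times the larger of both group SDs. The means were 8.69 ± 0.032 with DHA and 7.42 ± 0.066 with DMSO (SD, n = 3 each), a log2 fold change (DHA minus DMSO) of 1.28, or 2.42-fold. Among 28941 probe sets above the filter on dim signals, 24 had a larger positive log2 fold change.

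The other Phf10 probe set, 17341132, measured 10.94, 10.60 and 10.79 with DHA, against 10.51, 10.50 and 10.17 with DMSO. The groups did not overlap here either, but DHA replicate 2 lay only 0.091 above DMSO replicate 1. The means were 10.78 ± 0.17 with DHA and 10.39 ± 0.19 with DMSO (SD, n = 3 each), a log2 fold change of 0.39, or 1.31-fold. The log2 fold change of 17341148 thus exceeded that of 17341132 by 0.89, against a pooled SD of 0.18 in the difference between both values on 1 array. On the 2 arrays whose titles share a number, DHA minus DMSO was 1.32 for 17341148 and 0.43 for 17341132. The place of each probe set within the transcript was not analysed here.

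**Figure D1:**
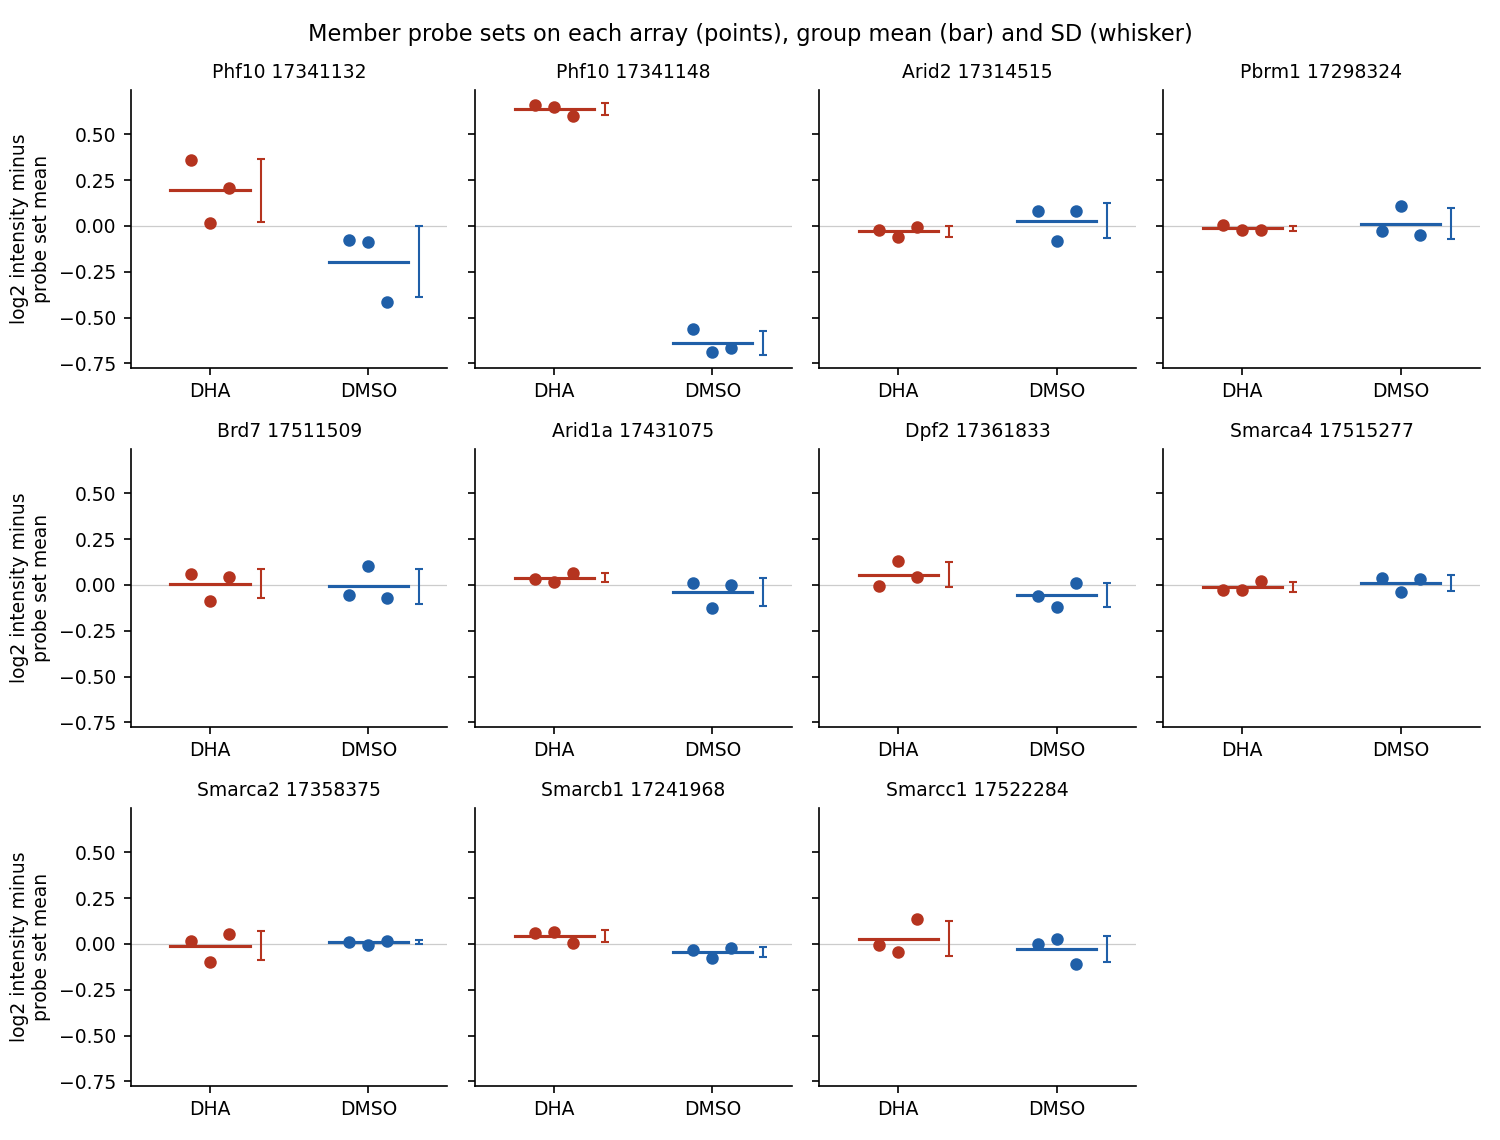
Log2 intensity of each member probe set minus its own mean over the 6 arrays (vertical axis), for DHA and DMSO arrays (horizontal axis). Points are arrays, bars group means and whiskers the SD (n = 3). Phf10 17341148 splits into 2 groups 1.28 apart and Phf10 17341132 into groups 0.39 apart, whereas the 9 other genes differ by 0.11 or less.

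The difference between both Phf10 probe sets rests on the value that chose the gene, so its place among other genes is a description and supports nothing. Among 774 genes with more than 1 probe set above the filter, the largest and smallest log2 fold change of a gene differed by a median of 0.092, and the 90th percentile was 0.25. Phf10 had 0.89. Of these genes, 2 had more, namely Zfas1 (0.92) and Snhg17 (0.91), which are hosts of small nucleolar RNAs. Ighm, the immunoglobulin heavy chain gene, followed at 0.85. Both Phf10 probe sets were higher with DHA, while the lowest probe sets of Zfas1 and Snhg17 had -0.15 and -0.084. This is not particular to Phf10, since all 6 probe sets of Ighm were higher too, by 0.067 to 0.92.

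**Figure D2:**
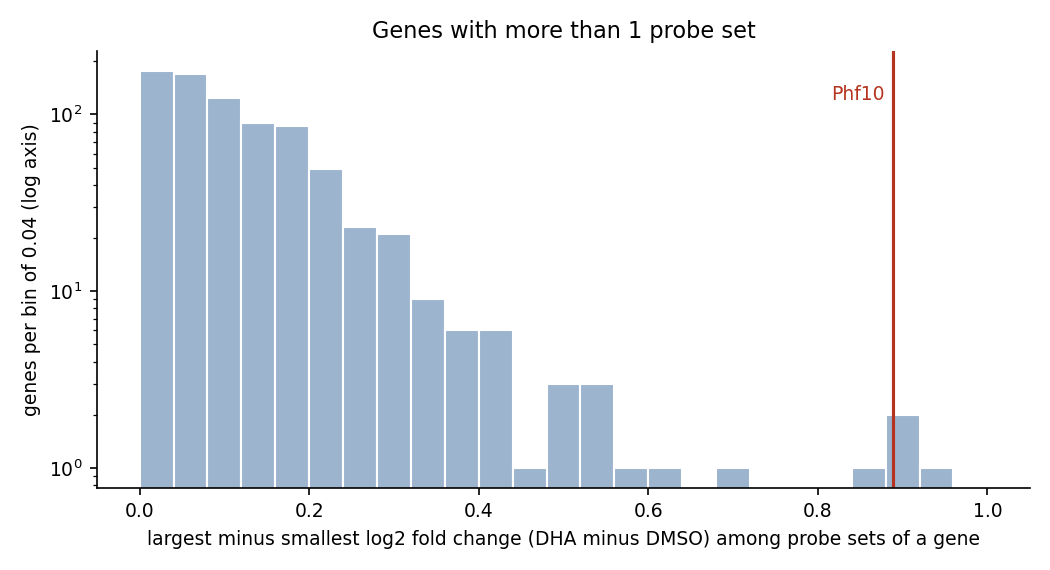
Number of genes (vertical log axis) by the difference between the largest and smallest log2 fold change, DHA minus DMSO, among the probe sets of a gene (horizontal axis), for 774 genes with more than 1 probe set. The line marks Phf10 at 0.89, against a median of 0.092.

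The fit by limma over all 28941 probe sets called 1 of the 11 member probe sets (threshold 0.05 after Benjamini-Hochberg adjustment), which was 17341148, beside 0.00691% of all probe sets (2 in all). As that value led to the choice of Phf10, nothing is read from this count. The call was lost on leaving out any 1 of the 6 arrays, where limma called 0 probe sets in all, with 1890 to 2727 at an unadjusted p under 0.05. The log2 fold change of 17341148 itself stayed between 1.25 and 1.31 and that of 17341132 between 0.28 and 0.48. None of the 9 other genes was called (smallest limma adjusted p = 0.667, for Smarcb1), and 0 of them had an unadjusted p under 0.05, where 8.61% of all tested probe sets did. With so few probe sets called in all, the count of called genes does not set these genes apart from the rest. At a share of 8.61%, 0 of only 9 genes at an unadjusted p under 0.05 does not either. The 95% interval of each of these 9 included 0, with bounds from -0.21 to 0.27.

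The other PBAF genes showed no difference beyond the spread between arrays. Arid2, which encodes the DNA-binding subunit that sets PBAF apart, measured 10.35, 10.31 and 10.37 with DHA, against 10.46, 10.29 and 10.46 with DMSO. The DHA arrays lay inside the DMSO range, and the log2 fold change was -0.057 (95% interval -0.21 to 0.099). Pbrm1, which encodes a protein with a row of bromodomains that bind acetylated histones, measured 10.27, 10.25 and 10.25 with DHA, against 10.24, 10.38 and 10.22 with DMSO. Its groups overlapped, DMSO replicate 2 being the highest array, and its log2 fold change was -0.024 (95% interval -0.17 to 0.12). Brd7, a bromodomain subunit, measured 9.50, 9.36 and 9.49 with DHA, against 9.39, 9.55 and 9.37 with DMSO, a log2 fold change of 0.015 (95% interval -0.17 to 0.19). In both Pbrm1 and Brd7 the highest array was DMSO replicate 2.

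Arid1a and Dpf2, the members of canonical BAF, had slightly higher means with DHA, with intervals that included 0, and were not called. Whether the complexes differ was not tested. Arid1a, which encodes the large subunit that defines this complex, measured 10.93, 10.91 and 10.96 with DHA, against 10.90, 10.77 and 10.89 with DMSO. The groups were separate by only 0.0072, and the log2 fold change was 0.077 (95% interval -0.063 to 0.22). Dpf2, the relative of Phf10 in canonical BAF, measured 10.09, 10.22 and 10.14 with DHA, against 10.03, 9.97 and 10.10 with DMSO. DHA replicate 1 lay just under DMSO replicate 3, so the groups overlapped, and the log2 fold change of 0.11 (95% interval -0.041 to 0.27) was the largest of the 9 other genes.

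Neither ATPase gene differed beyond its spread. Smarca4 measured 11.45, 11.46 and 11.50 with DHA, against 11.52, 11.44 and 11.52 with DMSO, and its groups overlapped at a log2 fold change of -0.022 (95% interval -0.14 to 0.099). Smarca2 measured 8.57, 8.46 and 8.61 with DHA, against 8.57, 8.55 and 8.57 with DMSO, a log2 fold change of -0.018 (95% interval -0.16 to 0.12). DHA replicate 2 was the lowest Smarca2 array and DHA replicate 3 the highest.

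In the core, Smarcb1, whose product contacts the nucleosome, measured 10.66, 10.67 and 10.60 with DHA, against 10.56, 10.52 and 10.57 with DMSO. The groups were separate by 0.031, and the log2 fold change was 0.090 (95% interval -0.027 to 0.21). Smarcc1, a scaffold subunit, measured 10.14, 10.10 and 10.28 with DHA, against 10.14, 10.17 and 10.03 with DMSO. Its groups overlapped, with a log2 fold change of 0.057 (95% interval -0.12 to 0.23).

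Of the 11 member probe sets, 4 had separate groups with DHA higher (both of Phf10, Arid1a and Smarcb1), where 6.55% of all tested probe sets did, and 0 had separate groups with DHA lower, where 6.69% did (13.2% in either direction). Nothing is read from the part of Phf10 in this count. Without Phf10, 2 of 9 were separate, 5 of 9 had a higher mean with DHA, and the median log2 fold change was 0.015, beside 0.00017 over all tested probe sets. The median size of a log2 fold change over all tested probe sets, regardless of sign, was 0.078. In 7 of the 9 genes the size was below it, Dpf2 and Smarcb1 being the exceptions. The standard errors of these 9, from 0.048 to 0.073, were also below the median of 0.084 over all tested probe sets. Nothing is therefore read from this count.

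The wider set of SWI/SNF subunits gave counts near those of all probe sets. Of 21 further subunits of BAF, PBAF and the non-canonical complex, 19 had a probe set of their own and all 19 passed the filter, each gene being represented by its brightest probe set. Limma called 0 of 19, beside 0.00691% of all tested probe sets, and 2 had an unadjusted p under 0.05, beside 8.61%. For these 19, the median log2 fold change was 0.0029, with 10 higher and 9 lower, beside a median of 0.00017 over all tested probe sets. Smarcd3 and Actl6a were not analysed here. The brightest probe set of Smarcd1, an accessory core subunit, measured 9.62, 9.55 and 9.62 with DHA, against 9.80, 9.85 and 9.78 with DMSO. Its groups were separate, with a log2 fold change of -0.22 (95% interval -0.34 to -0.095, limma adjusted p = 0.341). The other tested probe set of Smarcd1 had a log2 fold change of only -0.018. Bcl7b measured 9.96, 9.83 and 9.88 with DHA, against 9.73, 9.56 and 9.60 with DMSO, a log2 fold change of 0.26 (95% interval 0.093 to 0.43, limma adjusted p = 0.417). Its paralogue Bcl7a had -0.19 (95% interval -0.38 to 0.010) and Bicra, which marks the non-canonical complex, had 0.15 (95% interval -0.085 to 0.39).

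**Figure D3:**
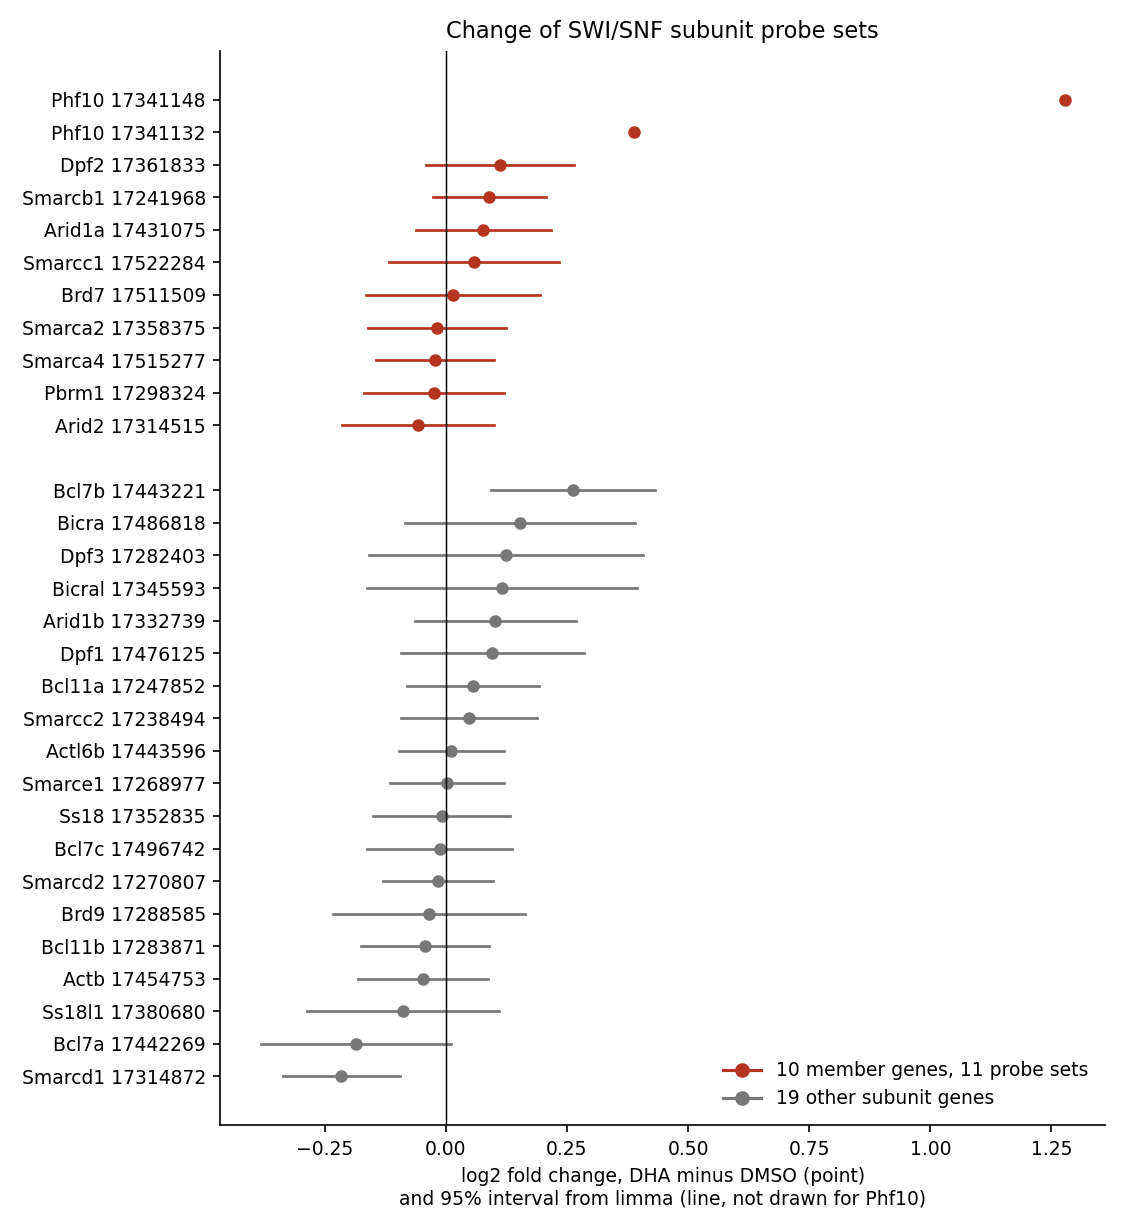
Log2 fold change, DHA minus DMSO (horizontal axis; points), for the 11 member probe sets (upper block) and 19 further SWI/SNF subunit genes (lower block), with the 95% interval from limma (lines) for all but Phf10. Both Phf10 probe sets lie to the right, at 1.28 and 0.39, and the other 28 points lie between -0.22 and 0.26.

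The 5 genes whose values across the 6 arrays were most like those of each Phf10 probe set were found among 17584 single-gene probe sets. Likeness was the root mean square difference in log2 units after each probe set was centred on its own mean, so that it weighs the size of the shift as well as its shape. For 17341148, which was steady within each group, the nearest was the neutral amino acid transporter gene Slc1a4, at a difference of 0.11. Slc1a4 measured 10.06, 9.79 and 9.91 with DHA, against 8.84, 8.70 and 8.52 with DMSO. The next were the histone gene H2aw (0.18), Jdp2, an AP-1 family repressor (0.197), Arl14ep (0.198) and the centrosomal gene Cep162 (0.21), and the median over all compared was 0.64. In each of these 5 genes DHA replicate 2 was the lowest of the DHA arrays, whereas in 17341148 it was level with replicate 1.

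For 17341132 the nearest was Mgme1, a mitochondrial nuclease gene, at 0.030. It measured 8.48, 8.12 and 8.30 with DHA, against 8.11, 8.03 and 7.70 with DMSO. Dleu7 (0.038), Slc45a4 (0.051), St7l (0.054) and the endotoxin receptor gene Tlr4 (0.059) followed, where the median was 0.26. None of these 5 was among those nearest to 17341148, which follows from the different size of the shift in both probe sets. Dleu7 was dim, with a mean of 4.30, just above the filter at 4.27. Its DMSO mean of 4.13 lay under the filter, so it passed only through its DHA arrays, and nothing is read from it. In 17341132, DMSO replicate 3 was the lowest array and DHA replicate 2 the lowest DHA array, the 2 arrays whose titles share a number. Its nearest genes had the same low arrays, which follows from how they were chosen, so nothing is read from this.

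**Figure D4:**
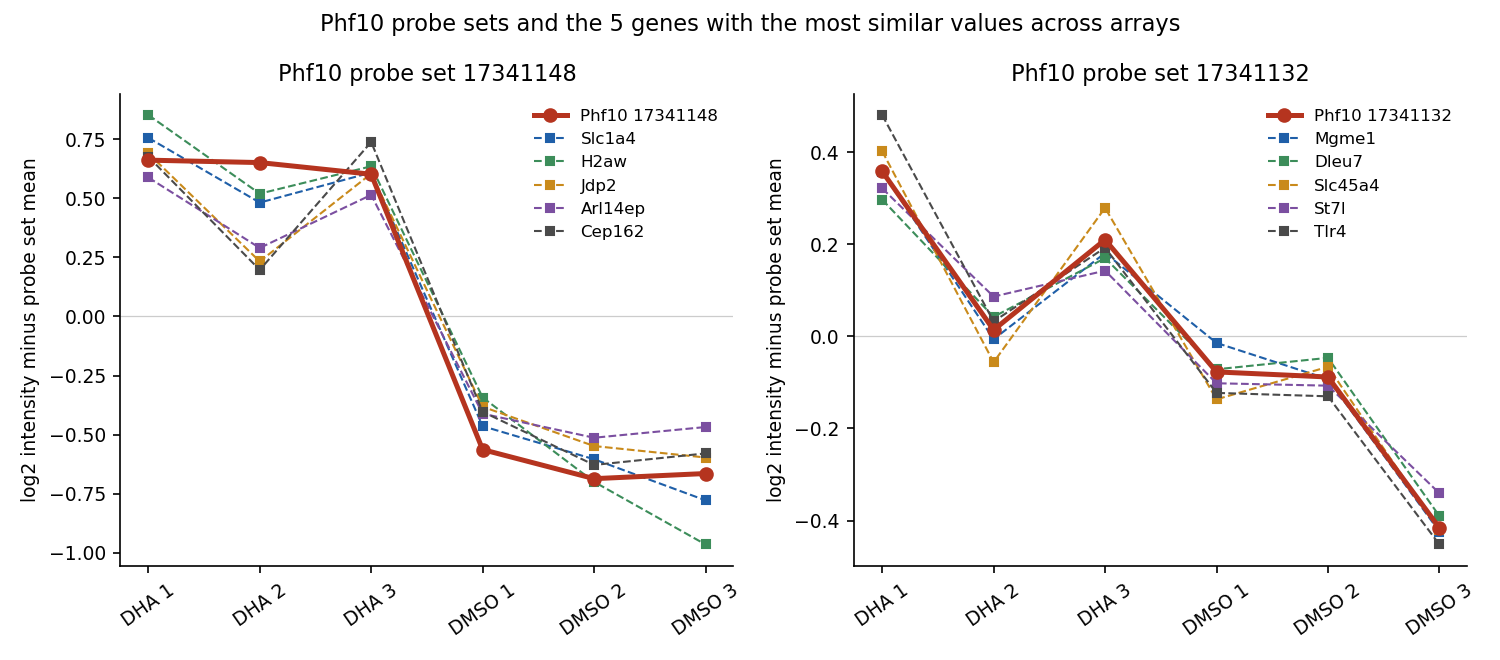
Log2 intensity minus the mean of the probe set (vertical axis) on each array (horizontal axis, DHA then DMSO replicates) for each Phf10 probe set (solid line) and the 5 genes nearest to it (dashed lines). The left panel shows a step between the groups and the right panel a graded pattern with DMSO replicate 3 lowest.

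The sequence before the start of Phf10 is shown beside those of Dpf2 and Pbrm1, the other members whose windows hold a TGACG, and of Slc1a4, the gene nearest to 17341148. The windows are the 250 bases before the annotated start from RefSeq (build GRCm38.p6), 5′ to 3′ on the strand of the gene, with capitals for TGACG on either strand. This core is one that factors of the ATF and CREB families recognise.
Phf10 (chr17:14961261-14961510, minus strand): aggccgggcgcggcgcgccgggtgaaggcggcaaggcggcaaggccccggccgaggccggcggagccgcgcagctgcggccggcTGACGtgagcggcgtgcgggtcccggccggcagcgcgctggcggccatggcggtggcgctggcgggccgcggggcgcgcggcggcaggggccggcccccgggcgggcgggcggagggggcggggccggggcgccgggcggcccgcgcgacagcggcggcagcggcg
Dpf2 (chr19:5912872-5913121, minus strand): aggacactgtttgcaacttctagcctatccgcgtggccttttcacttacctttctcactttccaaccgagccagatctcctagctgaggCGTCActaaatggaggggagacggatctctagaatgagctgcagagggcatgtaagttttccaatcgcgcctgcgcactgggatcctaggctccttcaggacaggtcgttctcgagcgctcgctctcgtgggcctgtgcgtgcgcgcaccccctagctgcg
Pbrm1 (chr14:31018888-31019137, plus strand): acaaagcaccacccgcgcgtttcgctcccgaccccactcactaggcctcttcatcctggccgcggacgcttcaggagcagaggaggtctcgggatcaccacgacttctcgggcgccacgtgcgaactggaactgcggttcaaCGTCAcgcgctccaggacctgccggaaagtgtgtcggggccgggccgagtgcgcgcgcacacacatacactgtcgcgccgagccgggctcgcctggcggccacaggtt
Slc1a4 (chr11:20332714-20332963, minus strand): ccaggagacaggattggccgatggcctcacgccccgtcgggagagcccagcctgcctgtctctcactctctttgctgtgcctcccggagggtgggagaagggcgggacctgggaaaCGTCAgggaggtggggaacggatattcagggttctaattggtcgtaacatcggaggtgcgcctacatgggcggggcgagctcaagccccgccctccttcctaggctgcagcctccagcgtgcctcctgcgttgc
The Phf10 window is made of G and C to 88.4%, against a median of 52.4% over 32851 windows and 57.2% to 81.6% in the other member windows.

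TGACG and TGATGNAA, the core of the amino acid response element through which ATF4 and CHOP act, were searched on both strands, and they overlapped nowhere in the printed windows. RefSeq windows were matched for 9 of the 10 genes, which have 10 windows, and Arid2 was not matched. TGACG was in 3 of these 10 windows (Phf10, Dpf2 and Pbrm1), where 17.8% of all windows hold it. In Phf10 it begins 166 bases before the start, on the strand of the gene, and in Slc1a4 its reverse complement begins 134 bases before. TGATGNAA was in 0 of the 10 member windows, where 3.45% of all windows hold it. Among the 5 genes nearest to 17341148, which have 9 windows in all, TGACG was in 3 of the 9 windows (1 each of Slc1a4, H2aw and Jdp2) and TGATGNAA in 2 of the 9 (1 each of Jdp2 and Arl14ep). These matches describe letters only.

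Genes beside Phf10 in RefSeq order, chosen after the Phf10 values were seen, had no difference beyond their spread. On 1 side, 1600012H06Rik, whose annotated span overlaps that of Phf10, measured 6.47, 6.69 and 6.91 with DHA, against 6.64, 6.66 and 6.57 with DMSO, a log2 fold change of 0.065 (95% interval -0.21 to 0.34). Wdr27 had -0.068 there, at a mean of only 4.33, just above the filter at 4.27, where folds tend to be understated. On the other side, 9030025P20Rik had 0.0077 and Ermard 0.13, and the groups of all 4 neighbours overlapped.

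**Figure D5:**
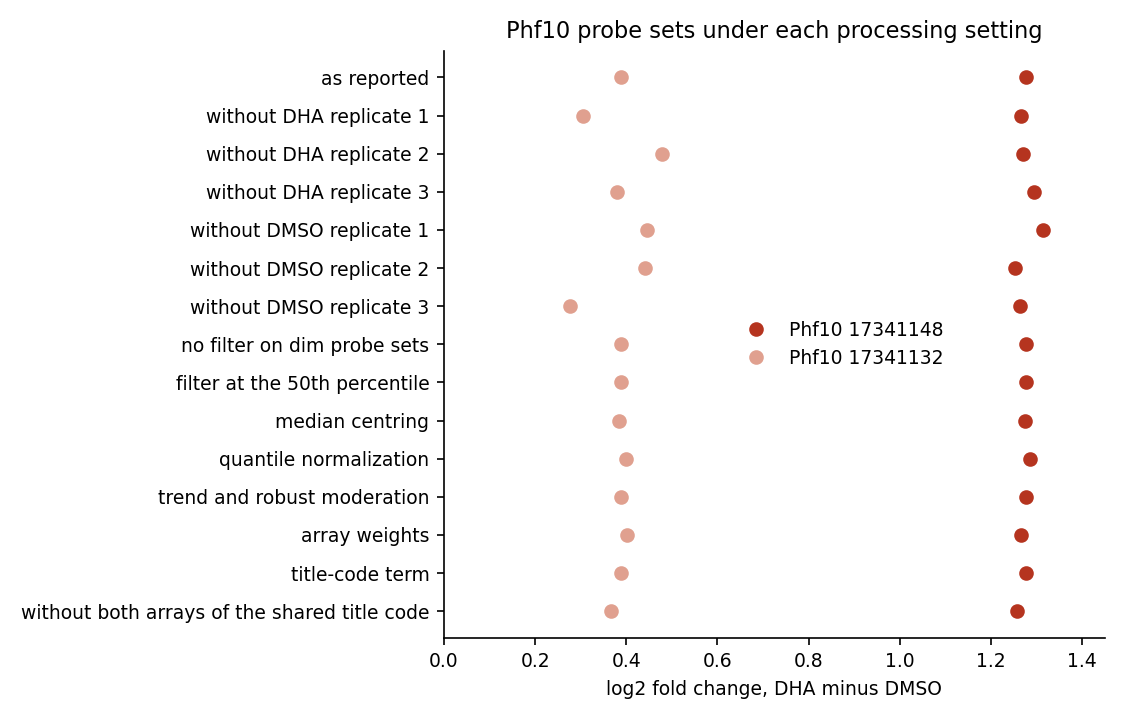
Log2 fold change, DHA minus DMSO (horizontal axis), of both Phf10 probe sets as reported and under 14 other processing settings (rows). The values of 17341148 stay between 1.25 and 1.31 and those of 17341132 between 0.28 and 0.48, with no overlap between the probe sets. Other filters, trend and robust moderation and the title-code term cannot change these values.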

How the data were processed

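The deposited table holds log2 intensities of probe sets. The authors used RMA, a robust average over the probes of a set, and Partek 6.6, per the submitters' processing notes, with no settings named. RMA usually equalises arrays, and folds of dim probe sets tend to be understated. Replicate numbers follow accession order. Signal quality on the arrays was not analysed here, and 3 arrays per group limit the precision.

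Of 41345 probe sets, the annotation gave 1 gene for 23521, several for 1814 and named 16010 not at all. Symbols were updated through Entrez identifiers to RefSeq (23328 matched). Probe sets with a mean at or under the 30th percentile (4.27) were left out, so 28941 were tested with limma 3.58.1 and R 4.3.3 (two-sided, Benjamini-Hochberg over all). The procedure was run on simulated data with independent normal values for each array, which cannot speak to links between arrays.

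Members, lists and motifs were chosen with earlier results of these data known. The naming rule took every member probe set, up to 4 genes per list by smallest p plus any called gene, and the 5 genes nearest to each Phf10 probe set. The lists were further SWI/SNF subunits, other remodellers and other Phf genes. Alternatives were leaving out arrays, other filters, centring, quantile normalization, other variance settings, array weights, a title-code term, 1 probe set per gene and another threshold.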

Additional observations from a re-analysis of the deposited data

How the results depend on the processing

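No paired analysis was possible because DHA and DMSO samples had 1 title number in common, on DHA replicate 2 and DMSO replicate 3, and the replicate numbers only name the samples. The count of called probe sets, 2, ranged from 0 to 0 on leaving out 1 array (1890 to 2727 at an unadjusted p under 0.05 by limma) and was 0 without both of these arrays (2366). It was 12 with a filter at the 50th percentile, 7 after median centring, 6 after quantile normalization, 4 with trend and robust moderation and 9 with a term for the title code. It was 14 with the brightest probe set of each gene and 27 at an adjusted p at or under 0.1. The count of called member probe sets, 1, was 0 on leaving out any 1 array, 0 without both of these arrays and 0 with the brightest probe set of each gene, which represents Phf10 by 17341132. Fewer arrays, fewer tested probe sets or a looser threshold explain several of these by construction. For the rest, the cause was not tested.

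Of the 9 other genes, 3 changed sign. On leaving out 1 array, Pbrm1 ranged from -0.053 to 0.024, Brd7 from -0.018 to 0.070 and Smarca2 from -0.050 to 0.028, and Smarca2 had 0.032 without both arrays of the common title number. Both Phf10 probe sets kept their sign in 14 of 14 alternatives (their groups were separate, so leaving out arrays could not turn it), and the difference between them ranged from 0.79 to 0.99. Other filters, trend and robust moderation and the title-code term could not change the log2 fold changes at all. The 3 gene lists had 0 called genes in each of these 14 alternatives. In the fits without 1 array or without both arrays of the common title number, limma called 0 probe sets in all. A count of 0 was therefore fixed there.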

Other observations

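No gene of other ATP-dependent remodelling families, such as ISWI, CHD and INO80, was called. Of 37 with a probe set of their own, 36 passed the filter and limma called 0, beside 0.00691% of all tested probe sets. Of the 36, 4 had an unadjusted p under 0.05 by limma (beside 8.61%), and the median log2 fold change was -0.0015. Groups were separate with DHA higher in 5 and with DHA lower in 3, beside 6.55% and 6.69% of all tested probe sets. The remodeller gene Chd2 measured 9.28, 8.57 and 9.12 with DHA, against 8.40, 8.40 and 8.26 with DMSO, with separate groups and a log2 fold change of 0.63 (95% interval 0.18 to 1.09, limma adjusted p = 0.460). DHA replicate 2 was its lowest DHA array. Ino80, the ATPase of the complex named after it, had 0.20, and the deacetylase complex genes Mta1 and Gatad2b had 0.15 and 0.12.

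Phf10 also shares its name with a family of PHD finger genes, of which 21 others had a probe set of their own and 20 passed the filter. Limma called 0 of these and 1 had an unadjusted p under 0.05, beside the same shares of all tested probe sets, and the median log2 fold change was 0.014. The smallest p was that of Phf11c, which measured 5.42, 5.57 and 5.45 with DHA, against 5.19, 5.38 and 5.18 with DMSO (log2 fold change 0.23). Phf21a had 0.18, Phf20l1 0.11 and Phf21b 0.062.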
